A study of Mus musculus with 4 samples.

Results

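The heterogeneous nuclear ribonucleoproteins (hnRNPs), the SR proteins and the RNA-binding motif (RBM) proteins are RNA-binding proteins. Many of them coat nascent transcripts or steer which exons are joined. The hnRNP, SR and RBM genes were taken as the protein-coding genes whose symbol begins with Hnrnp, or with Srsf or Rbm followed directly by a digit. This gave 70 of 21900 protein-coding genes in the RefSeq gene table, of which 21 were hnRNP genes, 11 SRSF genes and 38 RBM genes. A peak, meaning a stretch of open chromatin, was counted for such a gene when its centre lay inside it or within 1 kb of its ends, or when its nearest protein-coding gene end belonged to it. The rule found 358 of 97699 peaks, and none was counted for more than 1 of the genes.

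The assay was ATAC-seq, which uses a transposase to tag accessible DNA with adapters, on cells of MC38/gp100, a line of mouse colon carcinoma that carries the melanocyte antigen gp100. One group of 2 libraries came from cells given 1 µM GSK3368712, which inhibits the type I class of protein arginine methyltransferases, for 5 days. The other group of 2 libraries came from cells given the solvent DMSO for the same 5 days, and both groups were the same line in the same medium. Levels are the authors' means of 2 libraries in normalised reads, so no spread within a group is shown, and a change is the log2 level with inhibitor minus that with DMSO. Values after ± are standard errors derived from the change and its p-value. Whether the 2 libraries of a group are separate cultures is not in the labels, so every p-value reflects library-to-library spread that may be technical only.

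Type I enzymes, chiefly PRMT1, place asymmetric dimethyl groups on arginine, and the arginine-glycine stretches of hnRNP proteins are among their best known substrates. hnRNP proteins often silence exons, whereas SR proteins bind exonic enhancers and recruit the spliceosome. The RBM genes share a naming scheme and an RNA-binding fold rather than 1 function, and span spliceosome parts, exon regulators, ribosome assembly factors and tissue-specific proteins. ATAC-seq reports the accessibility of their DNA and not the amount, methylation or activity of the proteins.

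Of the 358 peaks, 278 had an adjusted p-value under 1 in the authors' deposited table and are called tested. They were 84 of hnRNP genes, 48 of SRSF genes and 146 of RBM genes. The other 80 were weaker, the strongest at 5.13 log2, whereas every tested one reached at least 5.16 log2, or 35.8 reads. Untested peaks can still hold a deposited unadjusted p-value. Tested peaks were found for 67 of the 70 genes. The exceptions were Rbm24, a muscle splicing regulator, Rbm46, a germline factor, and the Y-linked Rbm31y, for which the table listed no peak, weak ones included.

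Promoters are given first because they held the strongest peaks of most of these genes. RefSeq promoter windows of GRCm38.p6, the assembly behind mm10, run from 250 bases before a transcript start to 50 after it. The table held 77 windows for 60 of the 70 genes, and 67 windows of 54 genes overlapped a tested peak. The windows printed here are those of the strongest promoter peak in each family and of 2 RBM genes whose promoter peak was not called while peaks elsewhere fell. Each is printed 5′ to 3′ on the strand of the gene, in lower case, with matches to the searched motifs in capitals on either strand. The Hnrnpa1 window is chr15:103240147-103240446 on the plus strand, and that of Srsf2 is chr11:116853045-116853344 on the minus strand. Rbm15 lies at chr3:107333240-107333539 on the minus strand, Rbm38 at chr2:173021652-173021951 on the plus strand and Rbm47 at chr5:66150929-66151228 on the minus strand.
Hnrnpa1: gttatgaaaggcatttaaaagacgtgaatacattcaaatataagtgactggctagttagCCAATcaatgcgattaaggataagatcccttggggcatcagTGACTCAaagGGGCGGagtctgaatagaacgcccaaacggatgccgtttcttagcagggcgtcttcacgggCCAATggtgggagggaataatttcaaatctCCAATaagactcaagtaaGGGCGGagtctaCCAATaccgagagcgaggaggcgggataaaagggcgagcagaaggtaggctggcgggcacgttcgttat
Srsf2: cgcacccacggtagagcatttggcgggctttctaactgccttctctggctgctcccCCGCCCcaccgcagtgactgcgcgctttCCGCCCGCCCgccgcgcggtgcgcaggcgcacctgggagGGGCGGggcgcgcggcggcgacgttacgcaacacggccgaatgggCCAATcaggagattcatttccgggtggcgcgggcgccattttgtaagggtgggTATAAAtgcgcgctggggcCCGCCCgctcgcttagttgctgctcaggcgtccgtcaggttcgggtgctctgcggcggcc
Rbm15: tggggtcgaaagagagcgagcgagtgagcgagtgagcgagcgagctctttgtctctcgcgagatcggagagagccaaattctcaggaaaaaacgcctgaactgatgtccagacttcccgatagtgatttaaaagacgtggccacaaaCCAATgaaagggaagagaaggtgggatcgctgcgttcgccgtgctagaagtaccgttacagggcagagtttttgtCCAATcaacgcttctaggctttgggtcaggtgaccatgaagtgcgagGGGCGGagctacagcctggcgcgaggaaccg
Rbm38: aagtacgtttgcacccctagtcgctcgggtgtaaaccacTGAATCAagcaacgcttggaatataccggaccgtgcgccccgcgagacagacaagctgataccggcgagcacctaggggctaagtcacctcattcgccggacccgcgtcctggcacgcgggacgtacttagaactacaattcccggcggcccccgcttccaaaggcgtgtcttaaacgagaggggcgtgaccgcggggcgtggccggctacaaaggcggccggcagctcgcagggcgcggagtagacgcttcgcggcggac
Rbm47: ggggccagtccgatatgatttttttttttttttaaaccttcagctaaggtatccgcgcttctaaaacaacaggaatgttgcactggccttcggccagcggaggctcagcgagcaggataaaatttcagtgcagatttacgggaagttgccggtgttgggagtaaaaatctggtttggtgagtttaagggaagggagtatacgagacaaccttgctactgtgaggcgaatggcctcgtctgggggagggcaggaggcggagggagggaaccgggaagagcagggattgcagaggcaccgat

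The capitals differ among these windows. Hnrnpa1 held 4 CCAAT boxes (CCAAT), 2 GC boxes (GGGCGG) and 1 AP-1 motif (TGANTCA). Srsf2 held 5 GC boxes, some of them overlapping and read as CCGCCC on the printed strand, with 1 CCAAT box and 1 TATA box (TATAAA). Rbm15 held 2 CCAAT boxes and 1 GC box, Rbm38 only 1 AP-1 motif among those searched, and Rbm47 none of them. GC content was 69.3% for Srsf2, 63.7% for Rbm38, 54.3% for Rbm15, 51.7% for Rbm47 and 48.3% for Hnrnpa1.

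Across the 67 windows in tested peaks, the median GC content was 62.7% with 25 CpG dinucleotides, against 62% and 22 over the 10616 windows of all protein-coding genes in tested peaks. CCAAT boxes were present in 50.7% of the 67 windows and in 39% of the 10616. TATA boxes were present in 11.9% against 5.94%, E-boxes (CACGTG) in 11.9% against 10.4%, and GC boxes in 67.2% against 67.9%. The ETS motif CCGGAAG was found in 20.9% against 20.2%, and the NRF1 core GCATGCGC in 4.48% against 5.89%. AP-1 motifs stood in 2.99% against 5.28%, the YY1 motif AAGATGGCG in 1.49% against 3.44%, and the CRE TGACGTCA in 0 of the 67 windows against 3.45%. Windows of 1 gene can overlap, and these shares are descriptions without a test.

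Promoter peaks of the hnRNP, SRSF and RBM genes lay close to their DMSO level. None of 56 promoter peaks, from 54 genes, was called lower or higher at 0.05 on the adjusted p that the authors' deposited table gives (DiffBind with DESeq2), where 1.14% of all 8681 tested promoter peaks were called lower. A count of 0 of 56 allows a share of up to 5.36% by counting error alone, so it is not distinguishable from that background. At an unadjusted p under 0.05, 3 of the 56 (5.36%) were lower and 1 (1.79%) higher, against 5.32% and 1.65% of all promoter peaks. Of the 56, 1 (Rbm6) was called higher under both other scalings described with it. Over all tested peaks, higher calls rose under them from 368 to 624 and 579. The share among all promoter peaks under those scalings was not counted. Changes ran between -0.21 and 0.29 log2 with a median of 0.00, against -0.03 over all promoter peaks. Within ±0.25 log2 lay 55 of the 56, or 98.2%, against 93.8% of all promoter peaks. These were strong peaks, with a median of 1164 reads and 1102 bp against 855.1 reads and 1021 bp for all promoter peaks. The median derived standard error of their change was 0.0908 log2, and the smallest change called among all peaks of 9.80 to 10.35 log2 was 0.24. The changes and their intervals are drawn by family in the plot of promoter peaks.

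**Figure D1:**
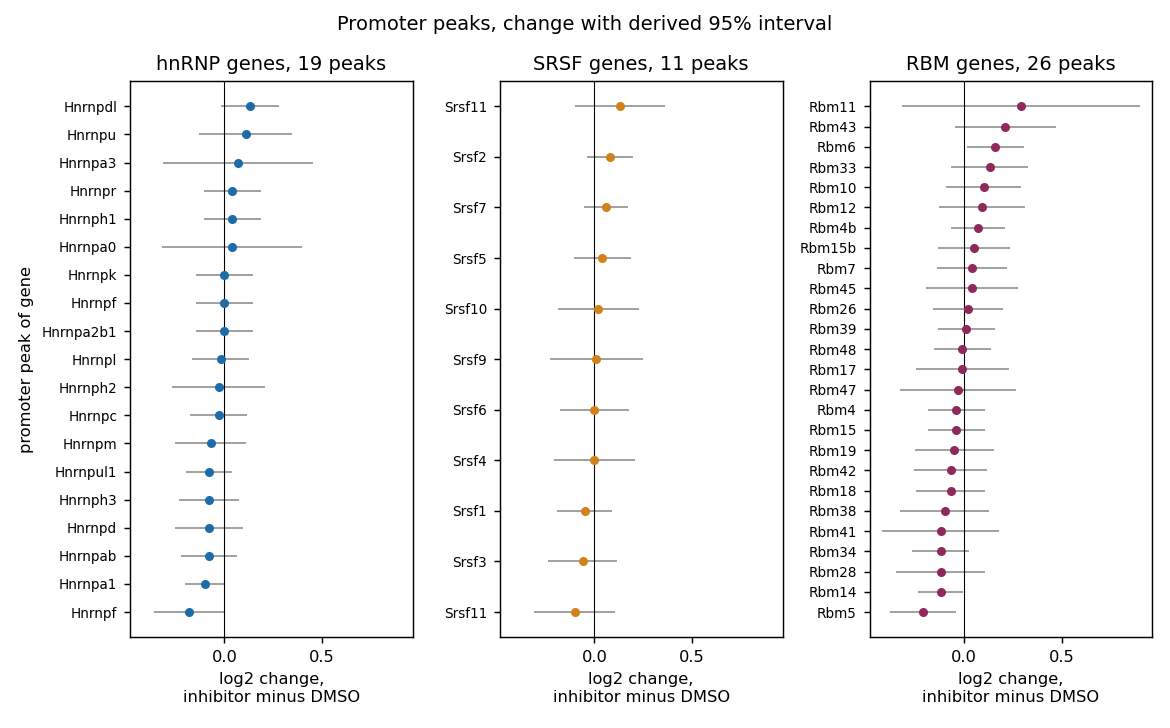
Log2 change (inhibitor minus DMSO, horizontal axis) of the 56 promoter peaks, 1 row per peak, for 19 hnRNP, 11 SRSF and 26 RBM peaks, with points for the change and bars for the derived 95% interval. All points lie between -0.21 (Rbm5) and 0.29 (Rbm11), and most intervals span 0.

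Among hnRNP genes the 19 promoter peaks had changes between -0.18 and 0.13 log2, with a median of -0.02. Hnrnpa1, a splicing repressor and a classic PRMT1 substrate, had the strongest, with 4608 reads with inhibitor and 4939 reads with DMSO. Its change was -0.10 ± 0.051 log2 (adjusted p = 0.303, the authors' deposited table). The peak also covered a promoter of Cbx5, which encodes the heterochromatin protein HP1 alpha. Hnrnpa2b1, its close relative, had 2778 reads with inhibitor and 2798 with DMSO, a change of 0.00 log2, in a peak shared with Cbx3. Hnrnpul1, an hnRNP linked to DNA repair, had 2759 reads with inhibitor against 2896 with DMSO and a change of -0.08 log2. Hnrnpc, which binds uridine tracts, had 2759 reads with inhibitor against 2817 with DMSO and a change of -0.03. Adjusted p-values in the authors' deposited table were 0.6 for Hnrnpul1 and 0.915 for Hnrnpc. In each of these 4 genes the inhibitor mean was equal to or just under the DMSO mean.

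The remaining hnRNP promoters followed the same narrow range. Hnrnpk, which binds poly-C RNA, had 2435 reads in both groups. Hnrnph1, which binds G runs, had 2557 reads with inhibitor against 2487 with DMSO, and Hnrnpr 1924 reads with inhibitor against 1872 with DMSO. Hnrnpdl had the largest upward change at 0.13 log2, with 2091 reads with inhibitor against 1924 with DMSO. Hnrnpf, a second G-run binder, had a promoter peak with 2120 reads in both groups and another, 8.39 kb from the nearer gene end, with 1053 reads with inhibitor against 1201 with DMSO and a change of -0.18. That second Hnrnpf peak had an unadjusted p of 0.0493 (adjusted p = 0.301, the authors' deposited table). Hnrnpul2 had 3191 reads with inhibitor against 3236 with DMSO in a peak at its end, a change of -0.02.

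SR protein promoters showed the smallest range, between -0.10 and 0.13 log2 over 11 peaks, with a median of 0.01. Srsf2, or SC35, a speckle protein that binds exonic enhancers, had the strongest, with 3717 reads with inhibitor and 3492 with DMSO. Its change was 0.08 ± 0.06 log2 (adjusted p = 0.595, the authors' deposited table), in a peak shared with Mfsd11. Srsf7 had 2557 reads with inhibitor against 2452 with DMSO, a change of 0.06. Srsf1, the prototype SR protein, had 1758 reads with inhibitor against 1808 with DMSO, a change of -0.05. Srsf3, the smallest SR protein, had 1458 reads with inhibitor against 1520 with DMSO, a change of -0.06. The means of Srsf4, at 734.2 reads, and of Srsf6, at 1024 reads, were equal between the groups. Srsf11 had 2 promoter peaks with changes of opposite sign, 0.13 log2 with 694.6 reads with inhibitor against 630.3 with DMSO and -0.10 with 685 reads with inhibitor against 734.2 with DMSO. The derived 95% intervals of all 11 SRSF changes included 0.

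RBM promoters spread a little more widely, between -0.21 and 0.29 log2 over 26 peaks, with a median of -0.01. Rbm15, an adaptor of the m6A methyltransferase complex, had the strongest peak of any gene here, with 4738 reads with inhibitor and 4871 with DMSO, a change of -0.04. Rbm14, a paraspeckle protein, had 2452 reads with inhibitor against 2665 with DMSO and a change of -0.12 ± 0.0591 log2 (adjusted p = 0.275, the authors' deposited table). Rbm4, a splicing regulator, had 2210 reads with inhibitor against 2272 with DMSO, and Rbm39, a U2AF-related splicing factor, 1641 reads with inhibitor against 1629 with DMSO.

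Rbm5 and Rbm6, neighbouring genes for related exon regulators, had changes of opposite sign, neither of them called. The Rbm5 promoter had 982.3 reads with inhibitor and 1144 with DMSO, a change of -0.21 ± 0.086 log2 (adjusted p = 0.141, the authors' deposited table). The Rbm6 promoter had 1675 reads with inhibitor and 1499 with DMSO, a change of 0.16 ± 0.0736 log2 (adjusted p = 0.222, the authors' deposited table). When changes were rescaled so that the summed normalised reads of both groups were equal, the adjusted p of Rbm6 became 0.0313, and with the median of all tested peaks set to 0 it became 0.0416. The promoter of Rbm10, the third member of that set, had 922.9 reads with inhibitor against 867.1 with DMSO, a change of 0.10. The largest upward promoter change, 0.29 log2 for Rbm11, rested on a weak peak of 76.1 reads with inhibitor against 62.2 with DMSO and had a derived 95% interval of -0.32 to 0.90. Rbm43 followed at 0.21, with 477.7 reads with inhibitor against 415.9 with DMSO.

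Promoter peaks of these genes were often shared with another gene. Of the 56, 14 (25%) also overlapped a promoter window of another protein-coding gene, against 791 of 8681 (9.11%) over all promoter peaks. In such peaks the accessibility of the promoters cannot be told apart.

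Peaks at gene ends, which include most of these promoters, gave 0 lower and 0 higher of 73. Over all tested gene-edge peaks, those within 1 kb of either end of a gene, 1.54% were lower in the authors' deposited table, and 0 of 73 allows a share of up to 4.11%. At an unadjusted p under 0.05, 3 of the 73 were lower and 2 higher, where 6.06% and 1.78% of all gene-edge peaks were. The median change was -0.03 log2, the same as over all gene-edge peaks, and became 0.05 after scaling to summed reads and 0.04 after median centring, for these genes and for all alike. Of the gene-edge peaks off the promoters, those of Hnrnpf and Hnrnpa2b1 came nearest to a call. Hnrnpf had 62.7 reads with inhibitor against 109.1 with DMSO in a weak peak 496 bp from its upstream end, a change of -0.81 ± 0.286 log2 (adjusted p = 0.064, the authors' deposited table). Hnrnpa2b1 had 1201 reads with inhibitor against 1046 with DMSO beside its downstream end, a change of 0.21 ± 0.0936 log2 (adjusted p = 0.199, the authors' deposited table), whose adjusted p became 0.0461 after scaling to summed reads. Hnrnpa3 followed with 352.1 reads with inhibitor against 427.6 with DMSO and -0.28 log2, and weak peaks of Rbm38 (67.7 reads with inhibitor against 79.3 with DMSO) and Srsf11 (34.1 reads with inhibitor against 38.6 with DMSO) had changes of -0.23 and -0.18. Those of Rbm38 and Srsf11 had derived standard errors of 0.294 and 0.459, larger than their changes.

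Away from gene ends, accessibility fell at 9 peaks, all of RBM genes. In the authors' deposited table, 9 of the 278 tested peaks (3.24%) were lower with the inhibitor at an adjusted p of 0.05, against 6.09% of all 74791 tested peaks. Higher peaks numbered 0, against 0.492% of all, so the limit of 1.08% that 0 of 278 allows includes the background. At an unadjusted p under 0.05, 29 (10.4%) were lower and 5 (1.80%) higher, against 14.3% and 2.18% of all. The 9 lower peaks belonged to Rbm47, Rbm38, Rbm20, Rbm27 and Rbm15. They were 6.16% of the 146 tested RBM peaks, near the 6.09% of all tested peaks. Of the 102 peaks inside any protein-coding gene and over 1 kb from a gene end, 6 (5.88%) were lower, against 6.7% of all such gene-body peaks. Of the 100 intergenic peaks 3 (3%) were lower, against 7.39% of all intergenic peaks. The 6 include the Rbm15 peak, which lay outside Rbm15 but inside another gene. By gene, 5 of 67 (7.46%) had a lower peak, against 18.6% of all 16815 protein-coding genes with a tested peak. Among RBM genes alone it was 5 of 35 (14.3%). The plot of change against level places these peaks among all others.

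**Figure D2:**
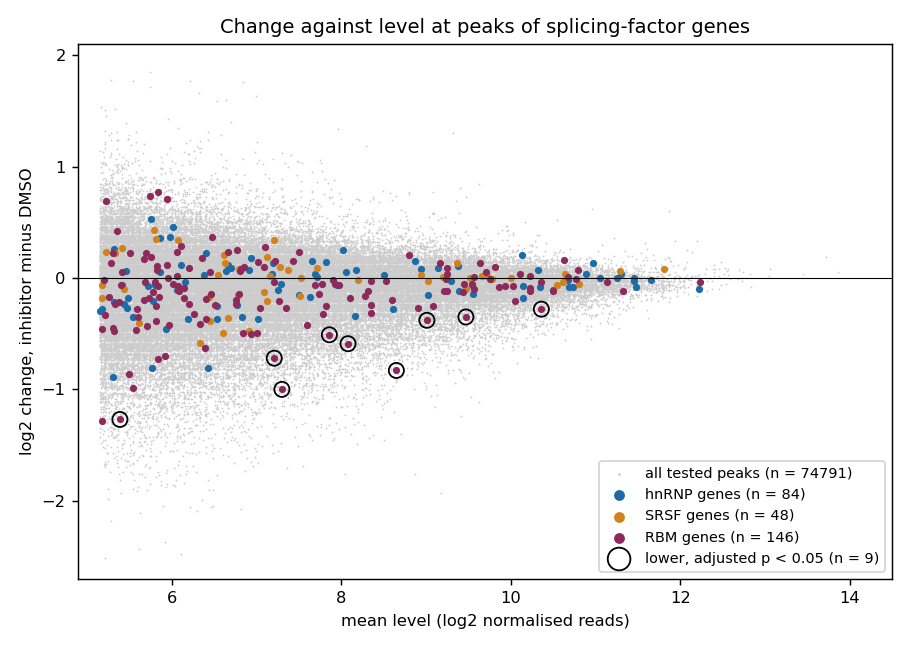
Log2 change (inhibitor minus DMSO, vertical axis) against the mean level in log2 normalised reads (horizontal axis) for 84 hnRNP, 48 SRSF and 146 RBM peaks, over all 74791 tested peaks in grey, with circles around the 9 lower peaks. All circled points are RBM peaks, and the scatter narrows toward high levels.

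Rbm47, a cofactor of APOBEC1 in C-to-U RNA editing and a splicing regulator, had the lower peak with the smallest p. This peak, at chr5:66046185-66047065 (mm10), lay inside the gene 30.1 kb from its nearer end and had 288 reads with inhibitor and 515.6 reads with DMSO. Its change was -0.83 ± 0.135 log2 (adjusted p = 2.48e-07, the authors' deposited table). A stronger peak of the gene, at chr5:66058891-66059348, had 626 reads with inhibitor against 797.9 with DMSO and a change of -0.35 ± 0.11 log2 (adjusted p = 0.0286, the authors' deposited table). Of the 15 tested peaks of Rbm47, 14 had a negative change and 1 a positive one, with a median of -0.14 log2, where 62.3% of all tested peaks had a negative change. After scaling to summed reads 9 of the 15 were negative and 6 positive, against 49.9% negative over all. Its promoter peak, shown as sequence above, had 321.8 reads with inhibitor against 328.6 with DMSO and a change of -0.03. A peak 14.1 kb outside the gene had 1160 reads with inhibitor against 1235 with DMSO, a change of -0.09.

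Rbm38, an RNA-binding p53 target that controls mRNA stability, had 3 lower peaks, all outside the gene. The peak at chr2:173044629-173045268 had 215.3 reads with inhibitor and 326.3 with DMSO, a change of -0.59 ± 0.159 log2 (adjusted p = 0.00624, the authors' deposited table). Next to it, at chr2:173047936-173048539, 111.4 reads with inhibitor against 183.5 with DMSO gave a change of -0.72 ± 0.211 log2 (adjusted p = 0.0151, the authors' deposited table). These lay 10.2 and 13.5 kb from the gene's end. Upstream, at chr2:173019851-173020199 and 1.87 kb from the start, 191.3 reads with inhibitor against 272.5 with DMSO gave -0.51 ± 0.167 log2 (adjusted p = 0.0384, the authors' deposited table). The promoter peak between them had 734.2 reads with inhibitor against 786.9 with DMSO, a change of -0.10 that was not called. Of the 12 tested peaks of Rbm38, 11 had a negative change, with a median of -0.18, and 9 after scaling to summed reads.

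Rbm20, known from heart muscle as the splicing regulator of titin, had 2 lower peaks inside the gene and no tested peak at its ends. The peak at chr19:53740567-53741281 had 105.4 reads with inhibitor and 210.8 with DMSO, a change of -1.0 ± 0.211 log2 (adjusted p = 0.000168, the authors' deposited table). A much stronger peak at chr19:53731784-53732545 had 1184 reads with inhibitor against 1438 with DMSO, a change of -0.28 ± 0.088 log2 (adjusted p = 0.0278, the authors' deposited table). Of its 10 tested peaks, 8 had a negative change, with a median of -0.27, and 7 after scaling to summed reads. The 2 lower peaks lay 79.9 and 71.2 kb from the nearer end of a 206.1 kb gene.

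The other 2 genes had 1 lower peak each. Rbm27, linked in human cells to nuclear RNA decay, had 448.8 reads with inhibitor and 580 with DMSO at chr18:42307896-42308452, inside the gene, a change of -0.38 ± 0.123 log2 (adjusted p = 0.0356, the authors' deposited table). Its gene-edge peak had 1287 reads with inhibitor against 1323 with DMSO. Rbm15 had 24.6 reads with inhibitor against 59.3 with DMSO at chr3:107298990-107299541, 6.25 kb outside the gene, a change of -1.27 ± 0.431 log2 (adjusted p = 0.0492, the authors' deposited table). The Rbm15 peak was the weakest of the 9 and had been called in 0 inhibitor libraries and 2 DMSO libraries, whereas the other 8 had been called in all 4 libraries. The means of both groups for each lower peak, beside the peaks at the genes' ends, are drawn in the plot of group levels.

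**Figure D3:**
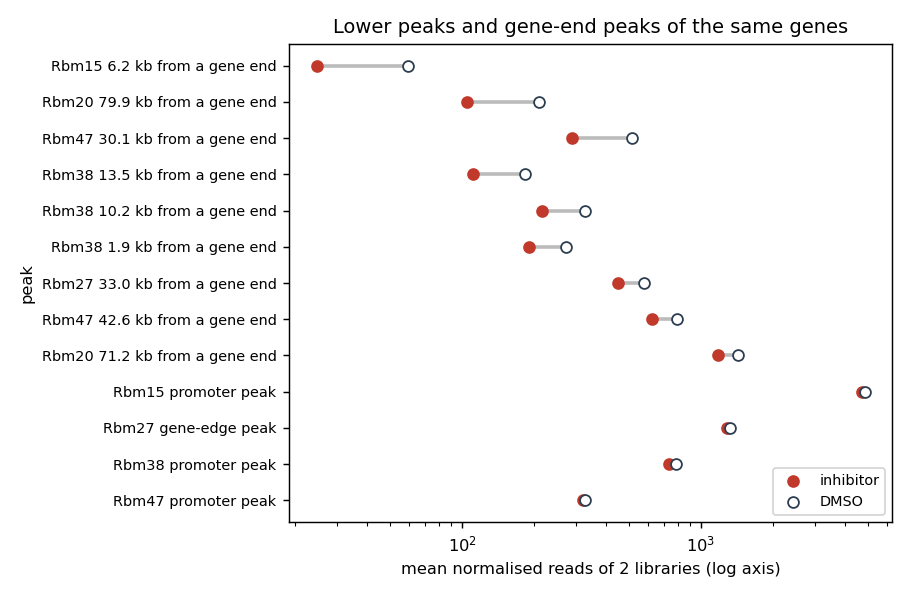
Mean normalised reads of 2 libraries (horizontal log axis) with inhibitor (filled) and with DMSO (open) for the 9 lower peaks and, below them, for the promoter or gene-edge peak of Rbm15, Rbm27, Rbm38 and Rbm47. The pairs of points stand apart at the lower peaks, from 24.6 reads with inhibitor against 59.3 with DMSO to 1184 reads with inhibitor against 1438 with DMSO, and nearly touch at the peaks of the gene ends.

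Scaling changed how many of the 9 were called. After scaling to summed reads, which took -0.08 log2 off every change, 3 of the 9 stayed lower, namely the Rbm47 peak of -0.83, the Rbm20 peak of -1.0 and the Rbm38 peak of -0.59. Median centring kept these 3 and the Rbm38 peak of -0.72. Of the tested peaks of these genes, 1.08% and 1.44% were thus lower under the respective scalings, against 3.61% and 3.81% of all tested peaks. No lower call became a higher one under either scaling, but the Rbm6 promoter was called higher under both and the Hnrnpa2b1 peak under the first.

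No hnRNP or SRSF peak was called in either direction on the authors' scale, although scaling to summed reads gave the 1 higher call of Hnrnpa2b1 named above. In the authors' deposited table, 0 of 84 hnRNP peaks were lower, which allows a share of up to 3.57%, and 0 of 48 SRSF peaks, which allows up to 6.25%. Over all tested peaks the share was 6.09%. At an unadjusted p under 0.05, 5 hnRNP peaks (5.95%) were lower and 1 (1.19%) higher, and 1 SRSF peak (2.08%) was lower and 0 higher. Over all tested peaks 14.3% were lower and 2.18% higher. Peaks within 1 kb of any protein-coding gene end, of which 6.06% were lower at that p, were 30 of the 84 and 14 of the 48. They were 12690 of all 74791 tested peaks. Farther from gene ends, 5 of 88 hnRNP and SRSF peaks (5.68%) were lower at that p, against 16% of all such peaks. For hnRNP and SRSF genes together, 0 of 88 peaks over 1 kb from any protein-coding gene end were lower, which allows up to 3.41%, whereas 9 of 114 RBM peaks (7.89%) and 7.02% of all such peaks were. Their median changes were -0.14 log2 for RBM peaks, -0.005 for hnRNP and SRSF peaks and -0.10 for all. Peaks are not independent replicates, and the difference between the families was not tested. The cumulative plot shows these changes in full.

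**Figure D4:**
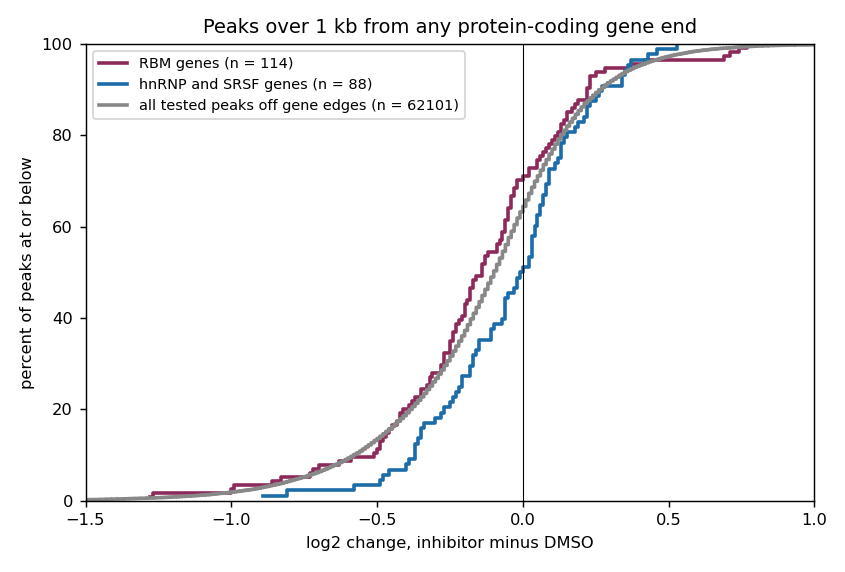
Percent of peaks (vertical axis) at or below each log2 change (inhibitor minus DMSO, horizontal axis), for the 114 RBM peaks, the 88 hnRNP and SRSF peaks and all 62101 tested peaks over 1 kb from any protein-coding gene end. The RBM curve runs near the grey curve of all peaks, with medians of -0.14 and -0.10 log2, and the hnRNP and SRSF curve lies to its right.

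The places of the peaks were counted by family. Of the 48 SRSF peaks, 14 were at gene ends, 6 inside genes and 28 intergenic. Of the 84 hnRNP peaks these were 30, 29 and 25, and of the 146 RBM peaks 32, 67 and 47. Over all 74791 tested peaks they were 12690, 33181 and 28920, so the RBM share inside genes was close to that of all peaks. Differences in place were not tested. By distance to the nearest end of any protein-coding gene, 0 of 32 RBM peaks were lower within 1 kb, 1 of 25 between 1 and 5 kb, 3 of 43 between 5 and 20 kb, 3 of 27 between 20 and 50 kb and 2 of 19 farther away. Over all tested peaks the share lower ran from 1.54% through 4.97%, 6.60% and 8.07% to 8.66% over the same distances. Of hnRNP and SRSF peaks, 44 lay within 1 kb of such an end, 36 between 1 and 5 kb, 46 between 5 and 20 kb, 4 between 20 and 50 kb and 2 farther away.

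Calls were more frequent among strong peaks than among weak ones, here and over all peaks. At or above the median level of all tested peaks, 8 of 142 peaks of these genes (5.63%) were lower, against 8.77% of all. Below it, 1 of 136 (0.735%) was lower, against 3.41% of all. Genes with more tested peaks had a lower one more often, here and over all genes. None of 45 genes with 1 to 4 tested peaks had a lower one, against 6.80% of all such genes, whereas 2 of 17 genes with 5 to 9 peaks did, against 28.3%, and 3 of 5 genes with at least 10 peaks, against 62.9%.

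Of the 5 genes with at least 10 tested peaks, 2 had no call. Rbm19, a ribosome biogenesis factor, had the most tested peaks, 18, with changes between -0.45 and 0.74 log2 and a median of -0.04. Of these, 11 had a negative change and 6 a positive one, and 7 and 11 after scaling to summed reads. Srsf3 had 15 tested peaks with changes between -0.58 and 0.21 log2, of which 11 were negative and 3 positive, and 7 and 8 after that scaling. The Srsf3 peak of -0.58 had 64.9 reads with inhibitor against 97 with DMSO (adjusted p = 0.301, the authors' deposited table). Among hnRNP genes, Hnrnpab, Hnrnpc, Hnrnpf and Hnrnpr had the most, 7 each. The plot of loci sets these genes side by side.

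**Figure D5:**
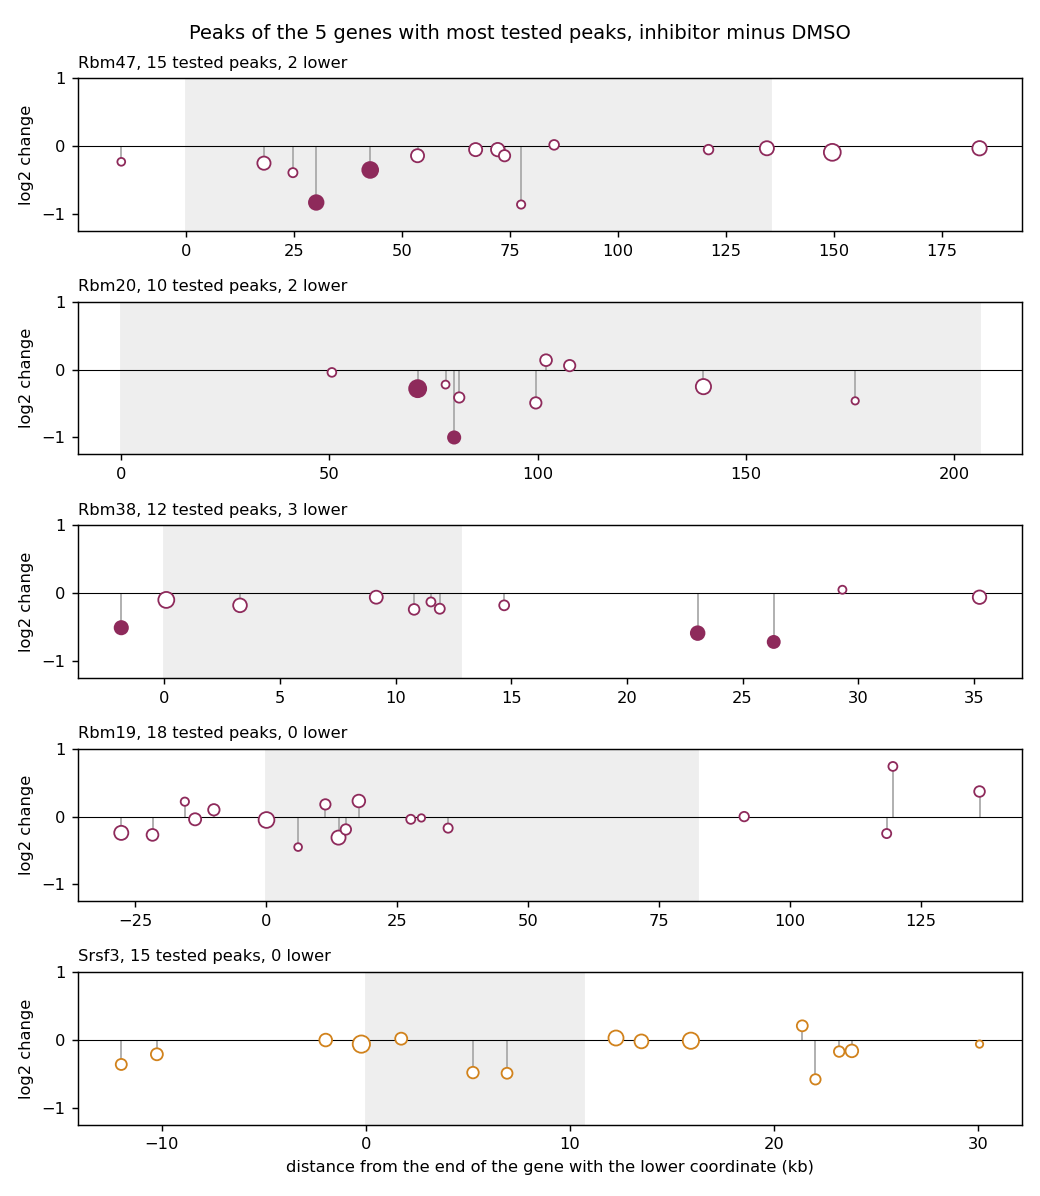
Log2 change (inhibitor minus DMSO, vertical axis) of each tested peak of Rbm47, Rbm20, Rbm38, Rbm19 and Srsf3 against the distance in kb from the gene end with the lower coordinate, with the gene as a grey band, point area growing with the level and filled points for lower peaks. Rbm47, Rbm20 and Rbm38 hold 2, 2 and 3 filled points, and Rbm19 and Srsf3 hold 0.

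The other peaks with an adjusted p under 0.2 away from gene ends belonged to Rbm25, Rbm33 and Hnrnpr. Rbm25, which regulates Bcl-x splicing in human cells, had 21.1 reads with inhibitor against 51.3 with DMSO inside the gene, a change of -1.28 ± 0.461 log2 (adjusted p = 0.0716, the authors' deposited table). Rbm33 had peaks of 31.6 reads with inhibitor against 62.2 with DMSO and of 165.4 reads with inhibitor against 221.3 with DMSO inside the gene, with changes of -0.99 and -0.42 log2 and adjusted p-values of 0.101 and 0.176 in the authors' deposited table. Hnrnpr had 39.7 reads with inhibitor against 69.5 with DMSO outside the gene, a change of -0.81 log2 (adjusted p = 0.167, the authors' deposited table). The largest upward change, 0.77 log2 outside Rbm5, had 72 reads with inhibitor against 42.2 with DMSO (adjusted p = 0.227, the authors' deposited table).

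Further lists of splicing genes were read by the same calls. SR protein kinases and importers, which phosphorylate SR proteins or carry them into the nucleus, were listed together with Ppp1r8, which is neither. In this list 2 of 10 genes (20%) had a lower peak and 0 a higher one, against 18.6% and 2.17% of all genes with a tested peak. These were Dyrk1a, with 377.4 reads with inhibitor against 630.3 with DMSO inside the gene and -0.75 log2, and Srpk2, with 63.6 reads with inhibitor against 131.6 with DMSO outside it and -1.05 log2. Their adjusted p-values in the authors' deposited table were 3.29e-06 and 0.00194. By peaks, 2 of 55 (3.64%) were lower. Clk1 to Clk4, the nuclear SR kinases, had none.

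Core spliceosome genes had 4 of 47 genes (8.51%) with a lower peak, against 18.6% of all genes, and 0 with a higher one. By peaks, 5 of 144 (3.47%) were lower. Of these, 2 were among the 58 gene-edge peaks of the list, where 1.54% of all gene-edge peaks were lower. Sf3b3, a subunit of the U2 snRNP, had 471.1 reads with inhibitor against 666.3 with DMSO at its end and -0.50 log2 (adjusted p = 0.000896, the authors' deposited table), and a gene-body peak of -1.09 log2. Snrnp35, of the minor spliceosome, had 689.8 reads with inhibitor against 929.3 with DMSO and -0.43 log2 (adjusted p = 0.00217, the authors' deposited table). Sf3a1, also of the U2 snRNP, and Snrpf, an Sm protein, each had 1 lower peak away from their ends, of -0.50 and -0.53 log2.

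Other splicing regulators had 7 of 40 genes (17.5%) with a lower peak and 2 (5%) with a higher one, against 18.6% and 2.17% of all genes. By peaks, 11 of 337 (3.26%) were lower. Rbfox2, which binds GCAUG elements, had 5 of them, with changes between -1.33 and -0.59 log2. Celf2, Luc7l2, Mbnl1, Mbnl2, Srrm1 and Tardbp had 1 each, and that of Luc7l2 was a gene-edge peak with 1885 reads with inhibitor against 2210 with DMSO and -0.22 log2. The higher peaks were outside Khdrbs3, with 101.1 reads with inhibitor against 46.9 with DMSO and 1.1 log2, and inside Mbnl2, with 699.4 reads with inhibitor against 545 with DMSO and 0.36 log2. Their adjusted p-values in the authors' deposited table were 0.00669 and 0.0204. After scaling to summed reads the lower calls of Luc7l2 (adjusted p = 0.271), Tardbp (0.136), Celf2 (0.0915), Mbnl1 (0.0854), 1 of the 5 Rbfox2 peaks (0.0778) and the Snrpf peak (0.0671) were lost, as they were after median centring. The share of peaks lower in each of the 3 lists was below the 6.09% of all tested peaks. That of the hnRNP, SRSF and RBM genes together was also below it, whereas RBM genes alone had 6.16%. Gene-edge peaks, of which 1.54% were lower over all, were 58 of 144 in the core list. They were 12 of 55 in the kinase list, 40 of 337 among other regulators and 12690 of all 74791 tested peaks. These differences in share were not tested.

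The cell line was checked by markers at gene ends. Of 12 epithelial and colon markers, Krt8 alone had tested gene-edge peaks, of at most 347.3 reads with inhibitor and 294.1 with DMSO, and Epcam, Cdh1, Cdx2 and Vil1 had none. Of 6 blood markers 5 had one, among them Cd68 with 2336 reads with inhibitor against 2419 with DMSO and Cd3e with 64.9 reads with inhibitor against 45.6 with DMSO, and Ptprc had none. Of 5 fibroblast and endothelium markers 3 had one, with Col1a1 at 1596 reads with inhibitor against 1574 with DMSO. Pmel, the gene for gp100, had 2539 reads with inhibitor against 2798 with DMSO, whereas Tyr, Dct and Mlana had none. None of these gene-edge peaks was called in the authors' deposited table. Promoter windows of the epithelial and colon, the blood, and the fibroblast and endothelium lists each overlapped 1 tested peak. The changes of those peaks were -0.02, -0.05 and 0.11 log2. Windows of the melanocyte list overlapped 0. The Krt8 peak of 347.3 reads, the Col1a1 peak and the Pmel peak had changes of 0.25, 0.02 and -0.13 log2. They thus overlapped no promoter window of their lists. Counting all tested peaks of each list, 4 of 44 (9.09%) were lower for the epithelial and colon list and 0 of 21 for blood. For fibroblast and endothelium 3 of 66 (4.55%) were lower and 1 higher, and for melanocyte genes 0 of 6 were lower. Over all tested peaks 6.09% were lower and 0.492% higher, and lists this small are not told apart from those shares. The part of these markers in the results above was not tested.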

How the data were processed

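Per the labels' protocols, nuclei from 100000 cells per group were tagmented with a Nextera kit, amplified over 10 PCR cycles and sequenced as paired reads of 42 nt. Per the submitters' processing notes, build mm10 was used with DiffBind 2.8.0, DESeq2, MACS2 2.1.1.20160309, HISAT2 2.1.0 and Picard 1.113. Their settings, the transposase offset and read depths were not given in the sources used here. A table of 97699 peaks was deposited, with levels as log2 mean normalised reads for each group and for both together. Its p-value and adjusted p-value columns were computed by the authors and deposited with it, and 2 further deposited columns count the libraries of each group in which a peak was called. The deposited fold runs DMSO minus inhibitor and was turned round. The table holds group means, so no new test across libraries was run, and the planned route for counts was not needed.

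Peaks with a deposited adjusted p-value under 1 are called tested, and those under 0.05 lower or higher. Standard errors are the change divided by the normal quantile of its two-sided p-value. For changes under 0.05 log2 the median of 20 level bins was used. Intervals are 95% and cover this error only, and limits for a count of 0 use 3 counts and cover counting error only. Summed normalised reads over peaks were 24524730 with inhibitor and 25913087 with DMSO. Rescaling took off a constant, recomputed p and adjusted it again over all tested peaks. Its arithmetic was checked on data simulated from the same standard errors, which cannot show whether the rescaled p-values hold for these libraries. No spike-in is named in the labels.

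Genes and promoter windows came from RefSeq tables of GRCm38.p6. The gene table has no exons, so introns and UTRs were not separated. Members and lists were chosen with earlier results of these data known. Of the other lists, 40 of 41 splicing regulators matched the gene table. Promoter peaks, those sharing at least 1 base with a window, were defined after seeing the data. Named peaks are those with an adjusted p under 0.2, the 8 gene-edge peaks of largest change and the 8 of highest level, the 6 other peaks of smallest p, the gene of each family with most tested peaks, and genes of the other lists with a called peak. Other promoter peaks, the Rbm6 peak, the largest upward peak and the peaks beside lower ones were chosen after their values were seen. Alternatives were a threshold of 0.01, both scalings, a level of at least 6 log2, other windows and other peak assignments. Python 3.11.15, pandas 2.3.3, numpy 2.4.6, scipy 1.17.1 and matplotlib 3.10.9 were used.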

Additional observations from a re-analysis of the deposited data

How the results depend on the processing

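The count of 9 changed peaks became 3 at an adjusted p under 0.01, 5 after scaling to summed reads (3 lower and 2 higher), 5 after median centring (4 lower and 1 higher) and 5 when only peaks inside or within 1 kb of a gene end were counted. The count of 5 genes became 3 at the stricter threshold and 3 under that narrower assignment. After scaling to summed reads it was 5, of which 3 had a lower peak and 2 a higher one. After median centring it was 4, of which 3 had a lower peak and 1 a higher one. Rbm15 and Rbm27 had no call under either scaling. A level of at least 6 log2 gave 8 peaks of 4 genes, and leaving out peaks over 50 kb from a gene end gave 9 of 5. Over all tested peaks 3.49% were lower at an adjusted p under 0.01, against 1.08% of the peaks of these genes. At a level of at least 6 log2 the shares were 7.98% and 3.92%. Over all tested peaks, scaling to summed reads gave 2698 lower (3.61%) and 624 higher and median centring 2848 (3.81%) and 579. As deposited there were 4558 (6.09%) and 368. The shares lower among the peaks of these genes were 1.08%, 1.44% and 3.24% in the same order. The median of gene-edge peaks ran between -0.03 and -0.01 under other filters and windows and turned positive, 0.05 and 0.04, under the scalings. That of other peaks ran between -0.09 and -0.06 and became 0.02 and 0.01, while all such peaks had -0.02 and -0.03. Of 29 named peaks, 22 kept their side of the threshold after scaling to summed reads, 6 lost their call and 1 gained one. After centring 24 kept their side and 5 lost their call. No called direction turned, but 3 uncalled gene-edge peaks (Rbm15, Hnrnpc and Hnrnpul2) turned from negative to positive under both scalings, and the Hnrnpa2b1 promoter peak moved off 0.00. Why the calls moved was not tested beyond the constant itself. No paired analysis was possible because the deposited table holds group means, and leaving out each library in turn could not be run for the same reason. Weak peaks limit what can be seen, since the smallest change called was 1.24 log2 in the lowest level bin and 0.16 in the highest.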
